A study of Mus musculus with 11 samples.

Results

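Cells transduced with R397W FoxP3 were compared with cells transduced with A384T FoxP3, on the 2 arrays whose titles name R397W and the 3 whose titles name A384T, out of 11 arrays in the study. The arrays were chosen by title alone, and the comparison covered 45037 probe sets. The cells were naive CD4+ CD25- CD45RBhigh T cells taken from BALB/cA lymph nodes and spleen. They were activated with 0.5 µg/ml anti-CD3e and 10 ng/ml IL-2 beside irradiated (20 Gy) spleen cells that lacked T cells, spin-infected 24 h later, and sorted on day 7 as CD4+ cells high in green fluorescent protein (GFP). Each group carried the retroviral vector MIGR1, which was empty in the mock group (3 arrays) and held mouse FoxP3 as wild type (WT, 3 arrays), A384T or R397W. All groups therefore shared the activation, the IL-2 and the vector, and the mutant proteins were made from a retrovirus in cells that had been naive, not in Treg cells.

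The identity of regulatory T cells (Treg cells) depends on FoxP3, a transcription factor with a forkhead DNA-binding domain, and patients with an inactive gene develop the autoimmune syndrome IPEX. Both substitutions are known from IPEX and fall within the DNA-binding domain. In Treg cells FoxP3 keeps up surface receptors such as the high-affinity IL-2 receptor, whose signal runs through STAT5, and STAT5 in turn induces inhibitors of cytokine signalling that close a feedback loop.

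Every probe set is given on a log2 scale relative to the mock median (the middle of its 3 mock values), so that differences between arrays could be read but not expression levels. The array medians lay between -0.016 and 0.0019. The array numbers in the titles served as a block in a further fit, called here the block, and blocked p-values are those of that fit. Differences are given as R397W minus A384T ± standard error (SE) from limma, and a probe set was called at an adjusted p (Benjamini-Hochberg over the 45037 probe sets) under 0.05. The median SE was 0.155, and the number of arrays limits this precision. Separate animals or cultures for the arrays of a group are not named in the labels, and the p-values therefore rest on a spread that may be technical. Since these are sorted bulk samples, fewer cells that express a gene and less RNA per cell cannot be told apart. A T cell identity cannot be read as a level from centred values. Of 9 measured T cell identity genes, Cd2, an adhesion receptor, was lower in R397W (-0.60 ± 0.11, adjusted p = 0.027) and the others did not pass the test (2 lower and 1 higher with the block). Of all genes, 1.18% were lower and 0.813% higher (4.06% and 3.17% with the block). The Cd2 call was lost without A384T 1, A384T 2, R397W 1 or R397W 2 (highest adjusted p = 0.241).

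The Foxp3 probe set stood at 0.33, 0.10 and 0.30 on the A384T arrays, at -0.19 and -0.39 on the R397W arrays, and at -0.07, 0.00 and 0.11 on the WT arrays. The R397W arrays lay below the A384T arrays, by -0.53 ± 0.17, which did not pass the test (adjusted p = 0.214, blocked 0.0733). The place of its probes relative to the transduced sequence is not given here, and WT arrays did not differ from mock there (0.04, adjusted p = 0.976), so the probe set checks neither the labels nor the amount of transduced FoxP3.

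Where the mutants differed, A384T lay away from the empty vector and R397W lay near it. R397W differed from A384T at 661 probe sets, being lower at 0.853% of those tested and higher at 277 (0.615%). Over the lower probe sets the median difference from mock was 1.35 with A384T, 1.16 with WT and -0.01 with R397W. Over the 277 it was -1.03 with A384T, -0.90 with WT and 0.10 with R397W. The called differences ran from -5.84 to -0.435 and from 0.456 to 3.74, and 95 of the lower and 41 of the higher probe sets differed by more than 4-fold. By gene, 214 were lower (1.18% of 18193) and 148 higher (0.813%).

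All 661 called probe sets had R397W arrays that did not overlap the A384T arrays, as did 22.7% of all probe sets. Array numbers from the titles were taken as pairing the samples, which the labels do not state. With the number as a block 1381 probe sets were lower (3.07%) and 1187 higher (2.64%), which held all 661. The corresponding genes numbered 739 lower (4.06%) and 577 higher (3.17%). Within number 1 and within number 2, the differences of all 661 probe sets had the direction of the call. Arrays that do not overlap allow no other direction, so this adds no support. The count of 661 moved by more than 1.5 times when any array of the comparison other than A384T 3 was left out. It was 396 without A384T 1, 386 without A384T 2, 197 without R397W 1 and 227 without R397W 2.

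Against mock, R397W itself gave no called probe set (0%) in limma without the block, with the block, or with a trend and robust prior. An unadjusted limma p under 0.05 was found at 829 probe sets without the block (1.84%) and 1684 with it (3.74%). With the trend and robust prior it was found at 695 (1.54%). A384T gave 976 called probe sets against the same mock arrays (2.17%), and 11.6% had an unadjusted p under 0.05 without the block. These comparisons share the mock arrays, and those with A384T share its arrays with the main comparison. That no probe set was called does not show that R397W cells and mock cells were alike. Differences from mock larger than 1 on the log2 scale were measured at 38 probe sets without the block and at 10 with it.

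The genes that WT FoxP3 changes were then followed in the mutants, where the 2 differences share no array, although limma pooled the residual spread of all 11 arrays in both tests. WT FoxP3 raised 671 probe sets over mock (1.49%) and lowered 527 (1.17%). Of the 671, 296 (44.1%) were lower in R397W than in A384T and 0 higher, 648 (96.6%) lay below 0, and their median difference was -0.89. Of the 527, 186 (35.3%) were higher in R397W and 0 lower, 508 lay above 0, and the median was 0.72. Over all probe sets tested the median was 0.01 and 48.2% lay below 0. Limma with the block chose more probe sets, and of its 1792 raised and 1646 lowered by WT, 908 (50.7%) were lower and 754 (45.8%) higher in R397W. It also called 6 probe sets that went the way of WT, of Ica1, Raph1 (2 probe sets) and 1110032F04Rik, which were higher in R397W, and of Tespa1 and Dgkd, which were lower. These were named after their values were seen. The shares fell to 29.7% and 22% without A384T 1, 27.7% and 21.4% without A384T 2, 15.9% and 10.8% without R397W 1, and 16.5% and 15.6% without R397W 2, whereas the medians stayed between -0.94 and -0.80 and between 0.67 and 0.75 when any of the 5 arrays was left out.

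**Figure D1:**
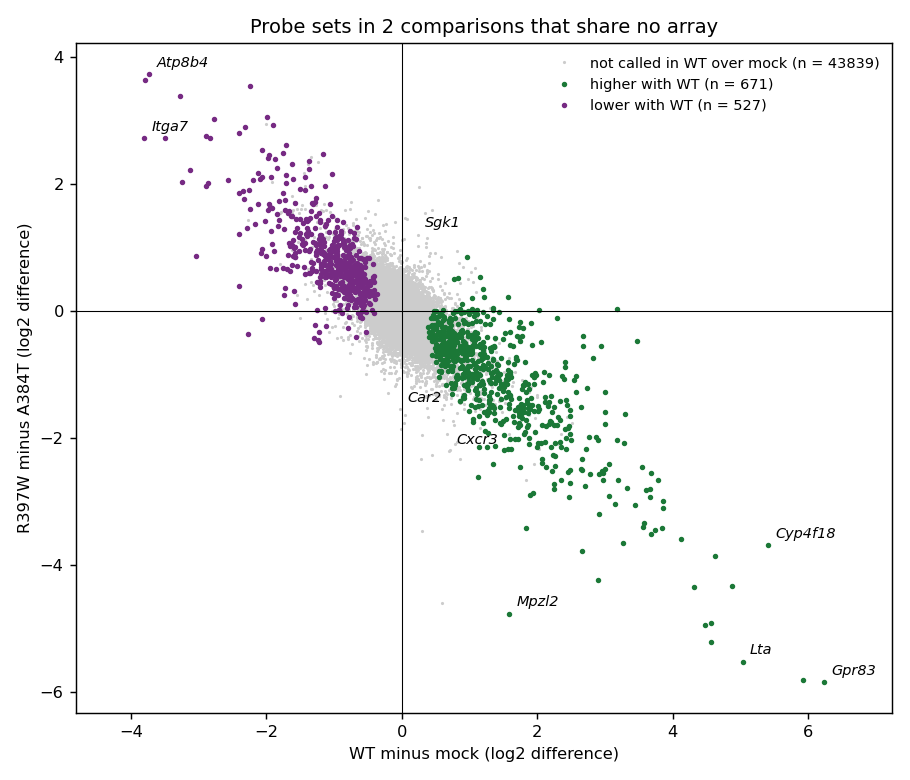
Each point is a probe set, with its difference WT minus mock (log2) on the horizontal axis and R397W minus A384T (log2) on the vertical axis; the 671 probe sets raised and the 527 lowered by WT are coloured. Most raised probe sets lie below 0 (648) and most lowered ones above 0 (508), with Gpr83 and Lta at the lower right and Atp8b4 at the upper left.

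The largest difference was found for Gpr83, an orphan-type receptor coupled to G proteins and abundant in Treg cells. It stood at 6.30, 5.45 and 5.65 on the A384T arrays, at 6.35, 6.46 and 5.90 on the WT arrays, and at -0.20 and 0.13 on the R397W arrays. The R397W arrays lay on either side of the mock arrays (0.00, 0.02 and -0.02) and far from the others, and Gpr83 was 57.2-fold lower than with A384T (-5.84 ± 0.24, adjusted p = 1.31e-05, and -4.22 after quantile normalization between arrays). Lta, which encodes the cytokine lymphotoxin alpha, was at 6.60, 5.87 and 4.26 with A384T and at 0.00 and 0.12 with R397W. The A384T arrays of Lta spread widely, yet none came near R397W, and the difference was -5.51 ± 0.60 (45.7-fold, adjusted p = 0.00168). Tgm2, a transglutaminase that crosslinks proteins, was at 5.62, 4.84 and 3.75 with A384T and at -0.19 and -0.14 with R397W (-4.90 ± 0.51, adjusted p = 0.00134).

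Mpzl2, a homophilic adhesion protein with an immunoglobulin domain, was the 1 gene of the 15 largest falls in which A384T also differed from WT without the block. With the block Myl10 (A384T minus WT 1.76, adjusted p = 0.0756, blocked 0.0105) and Cyp4f18 (-1.42, adjusted p = 0.19, blocked 0.0443) did as well. Mpzl2 stood at 5.45, 5.62 and 5.12 with A384T, at 1.71, 2.47 and 0.98 with WT, and at 0.43 and 0.84 with R397W. A384T thus lay above WT (3.68, adjusted p = 0.00621) and R397W 27.1-fold below A384T (-4.76 ± 0.37, adjusted p = 0.000307). Next came Drc1, a dynein regulatory protein of cilia (-4.32 ± 0.25), Sdc4, the cell surface proteoglycan syndecan-4 (-4.23 ± 0.40), and Gzmc, a granzyme (-3.86 ± 0.25). At these probe sets no A384T array came below 3.44 and no R397W array above 0.60. Another probe set of Sdc4 was at 0.96, 3.32 and 3.61 with A384T and at -0.26 and 0.22 with R397W and was not called (-2.65, adjusted p = 0.21).

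The remaining large falls, by 3.68 to 3.10 on the log2 scale, belonged to Cyp4f18, a leukotriene B4 hydroxylase of the P450 family, Nrn1, the surface protein neuritin, Tnfrsf9, the costimulatory receptor 4-1BB, Gldc, the glycine decarboxylase of mitochondria, and Myl10, a myosin light chain. Trib1, a pseudokinase, Izumo1r, the folate receptor FR4 of Treg cells, and Socs2, an inhibitor of cytokine signalling, completed them. All 15 were called higher in WT and in A384T over mock, and R397W minus mock ran from -0.48 to 0.53 over the 15, with 95% intervals that reached from -1.37 to 1.51. Another probe set of Cyp4f18 and one of Trib1 had the opposite sign, at 0.16 and 0.05, and were not called. Others of Tgm2 (-0.20), Tnfrsf9 (-0.01) and Socs2 (-1.86 and -0.53) were not called either. The call of Socs2 was lost without R397W 1 (adjusted p = 0.102), while the other 14 were called without any 1 of the 11 arrays. Quantile normalization gave smaller differences for Mpzl2 (-2.72), Drc1 (-2.59) and Socs2, whose call it ended (-1.79, adjusted p = 0.49). Because the values were already centred on mock, that scaling makes the arrays' spreads of differences from mock equal. It can thereby shrink the differences under comparison, here and wherever it is given below. With only the 5 arrays of the comparison, which leaves fewer residual degrees of freedom, Lta (adjusted p = 0.0578), Nrn1 (0.0502) and Gldc (0.0876) missed the test.

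**Figure D2:**
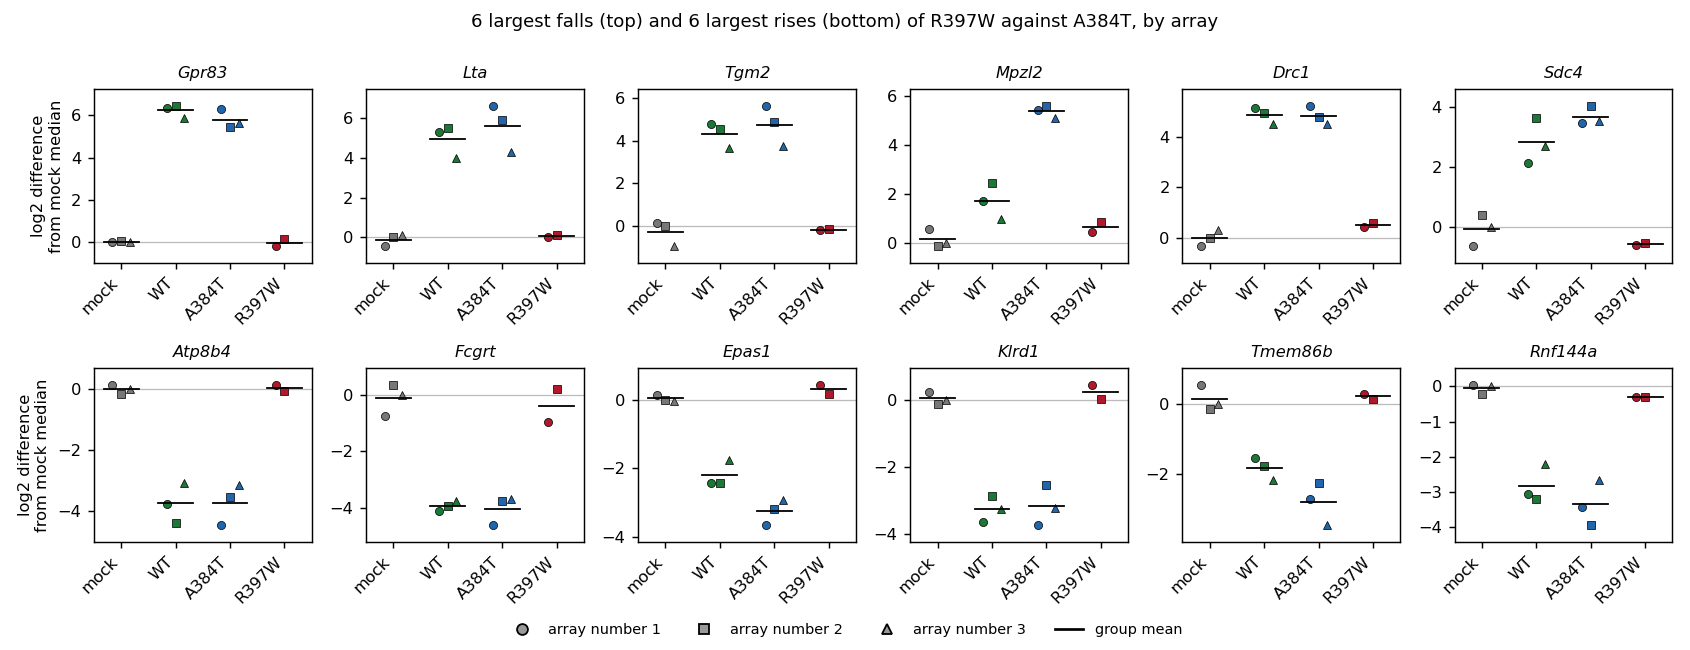
Values of the 6 largest falls (top) and 6 largest rises (bottom) of R397W against A384T, in log2 difference from the mock median, with 1 point per array (shapes give the array number) and a line at each group mean. The R397W points lie with the mock points, and the A384T points lie with the WT points or farther from mock.

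Atp8b4, a putative lipid flippase, headed the genes that were higher in R397W. It was at -4.45, -3.54 and -3.16 with A384T and at 0.13 and -0.09 with R397W (3.74 ± 0.39, 13.4-fold, adjusted p = 0.00132). Fcgrt, which encodes the neonatal Fc receptor, was at -4.60, -3.77 and -3.70 with A384T and at -0.96 and 0.19 with R397W (3.64 ± 0.40, 12.4-fold, adjusted p = 0.00168). For Fcgrt, R397W 1 lay lower than R397W 2. Epas1, the hypoxia-inducible factor HIF-2alpha, was at -3.65, -3.17 and -2.93 with A384T and at 0.43 and 0.17 with R397W (3.55 ± 0.24, adjusted p = 0.000144).

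Klrd1, the NK receptor chain CD94, followed at 3.39 ± 0.32. The genes from there down to 2.55 were Tmem86b, a lysoplasmalogenase, Rnf144a, a ubiquitin ligase, Myo6 and Myo1f, which are unconventional myosins, Pygl, the liver glycogen phosphorylase, and Alox5ap, which serves 5-lipoxygenase in making leukotrienes. Lypd6b, Pik3ap1, an adaptor of phosphoinositide 3-kinase, Itga7, a laminin-binding integrin chain, Cyp2s1, a cytochrome P450, and Bbs9, a part of the BBSome of cilia, were among them as well. All 15 were called lower in WT and in A384T over mock, and R397W minus mock ran from -0.54 to 0.29 (95% intervals from -1.74 to 1.04). Another probe set of Tmem86b was at -0.09 and not called. Others of Tmem86b (0.26), Atp8b4 (0.68), Rnf144a (0.70), Myo6 (1.59) and Pik3ap1 (0.77) were not called either. The calls of Pygl, Pik3ap1 and Itga7 were less stable than the other 12, which were called without any 1 of the 11 arrays. Pygl was lost without R397W 2 (adjusted p = 0.058). Pik3ap1 (adjusted p = 0.0376) was lost in 7 of the 11 fits, without mock 3, any WT array, A384T 1, A384T 2 or R397W 2 (highest adjusted p = 0.256). Itga7 (adjusted p = 0.0472) was lost in 9, kept only without mock 1 or mock 2 (highest adjusted p = 0.296). With only the 5 arrays of the comparison those 3 and Fcgrt (adjusted p = 0.0558), Tmem86b (0.0537) and Rnf144a (0.0584) missed the test. With the trend and robust prior it was missed by Pygl (adjusted p = 0.0615), Pik3ap1 (0.125), Itga7 (0.168), Fcgrt (0.078), Rnf144a (0.0636) and Cyp2s1 (0.0503). With the block, A384T minus WT was called for Epas1 (-1.04, adjusted p = 0.219, blocked 0.0292) and Myo6 (-0.83, adjusted p = 0.163, blocked 0.00526).

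Of 26 measured genes known to be high in Treg cells, 11 were lower in R397W and 0 higher (17 and 0 with the block). The list's median was -1.09, against 0.01 over all genes, of which 1.18% were lower (4.06% with the block). Besides Gpr83, Tnfrsf9, Izumo1r and Socs2, they were Rgs1, a regulator of G protein signalling (-2.57 ± 0.34, adjusted p = 0.00524), Itgae, the integrin chain CD103 (-1.77 ± 0.29, adjusted p = 0.015), Il2ra, Tnfrsf4, Ctla4, Gpr34 and Tnfrsf18. Rgs1 and Gpr34, a lysophospholipid receptor (-1.23 ± 0.23, adjusted p = 0.0261), stand outside the naming rule and were named after their values were seen. Izumo1r was at 3.41, 3.30 and 3.35 with A384T and at -0.17 and 0.10 with R397W (-3.39 ± 0.18, adjusted p = 8.09e-05). The A384T arrays of Izumo1r lay close together, far above both R397W arrays.

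Il2ra, the alpha chain (CD25) of the IL-2 receptor, was at 2.23, 2.03 and 1.57 with A384T and at 0.44 and -0.05 with R397W (-1.75 ± 0.23, 3.36-fold lower, adjusted p = 0.00546). Ctla4, which takes CD80 and CD86 away from costimulation, was at 2.01, 2.05 and 1.59 with A384T and at 0.29 and 0.56 with R397W (-1.45 ± 0.22, 2.74-fold lower, adjusted p = 0.0103). For both genes every A384T array lay above every R397W array by more than 1 on the log2 scale. Other genes of the Treg list did not pass the test. Nt5e, the ecto-enzyme CD73, was called higher with WT (3.48 over mock, adjusted p = 8.98e-05) and lower with A384T than with WT (-2.57, adjusted p = 0.00737), and it stood at 0.85, 1.16 and 0.85 with A384T and at 0.52 and 0.46 with R397W (adjusted p = 0.656). Ikzf2, the factor Helios, was at 1.61, 1.02 and 1.56 with A384T and at 0.47 and 0.26 with R397W and narrowly missed the test (-1.03 ± 0.22, adjusted p = 0.0518, and 0.00247 with the block). Nt5e and Ikzf2 were named after their values were seen.

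The Treg count was 4 without R397W 1 and 6 without R397W 2. In these 2 fits the calls of Ctla4 (adjusted p = 0.121 and 0.0582), Itgae (0.111 and 0.129) and Tnfrsf18 (0.128 and 0.0956) were lost, and Gpr34 was lost in them and without A384T 1 and A384T 2 (highest adjusted p = 0.234). Rgs1 (0.0745) and Tnfrsf4 (0.0923) were lost without R397W 1, and Il2ra (0.0681) without R397W 2. Quantile normalization ended the calls of Ctla4 (-0.84, adjusted p = 0.394), Tnfrsf4 (-1.08, adjusted p = 0.46), Tnfrsf18 (adjusted p = 0.159) and Itgae (0.0646), and with only the 5 arrays those 4 and Il2ra (0.0823) missed the test. Ctla4 (0.0851), Tnfrsf4 (0.0578), Tnfrsf18 (0.138) and Itgae (0.08) were also lost with the trend and robust prior.

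Targets of IL-2 and STAT5 signalling had the highest share of called genes among the 38 lists. The lists were chosen with earlier results of these data known and share genes, so this rank is no independent support. Of 20 measured, 12 were lower in R397W and 0 higher (15 and 0 with the block), and the median was -1.68. Over all genes 1.18% were lower (4.06% with the block). Cish, a feedback inhibitor that STAT5 induces, was at 2.99, 2.62 and 2.20 with A384T and at 0.02 and 0.22 with R397W (-2.48 ± 0.21, 5.59-fold lower, adjusted p = 0.000495). Lif, the cytokine leukemia inhibitory factor, was at 2.91, 2.54 and 1.82 with A384T and at -0.27 and -0.09 with R397W (-2.61 ± 0.27, adjusted p = 0.00128). In both genes the lowest A384T array lay far above the higher R397W array, and the calls held without any 1 array. Osm, the related cytokine oncostatin M (-1.27 ± 0.16, adjusted p = 0.00366), and Bcl2l1, which encodes the survival protein BCL-XL (-2.28 ± 0.47, adjusted p = 0.0446), were lower as well.

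The other called members were Lta, Socs2, Il2ra and Tnfrsf4, given elsewhere, and 4 genes outside the naming rule. Socs3, an inhibitor of cytokine signalling like Cish and Socs2, was 4.19-fold lower (adjusted p = 0.00479), Il2rb, the beta chain of the IL-2 receptor, 4.06-fold (0.00181), Pim1, a survival kinase, 2.62-fold (0.000166), and Cdk6, a kinase of the G1 phase, 2.20-fold (0.0391). Socs1 was at 1.05, 2.12 and 2.03 with A384T and at -1.28 and 0.57 with R397W (number 1 differed by -2.33 and number 2 by -1.55), and was called with the block only (adjusted p = 0.254, blocked 9.14e-05). Without R397W 1 the count of 12 was 6, with Osm (0.0521) and Socs3 (0.0681) lost there. Bcl2l1 was lost in 8 of 11 fits, without any mock array, WT 1, A384T 1, A384T 2, R397W 1 or R397W 2 (highest adjusted p = 0.297), and Cdk6 in 9 (0.306).

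The promoters of Lta and Cish, of this list, and Tnfrsf9, of the Treg list, are shown because they hold the letters that STAT5 is known to bind and their RNA separated the mutants on every array. The search was for TTCNNNGAA, which is its own reverse complement and so covers both strands, in windows of 300 bases from 250 before to 50 after the RefSeq start (GRCm38.p6). Matches stand in capitals. The Lta window is chr17:35205302-35205601 (minus strand), that of Cish chr9:107296409-107296708 (plus strand), and that of Tnfrsf9 chr4:150927749-150928048 (plus strand).
Lta: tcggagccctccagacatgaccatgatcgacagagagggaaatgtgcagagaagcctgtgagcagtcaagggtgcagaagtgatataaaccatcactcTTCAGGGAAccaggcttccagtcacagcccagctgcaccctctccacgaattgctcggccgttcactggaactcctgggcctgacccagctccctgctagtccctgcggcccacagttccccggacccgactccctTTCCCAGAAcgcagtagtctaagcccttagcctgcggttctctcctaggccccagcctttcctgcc
Cish: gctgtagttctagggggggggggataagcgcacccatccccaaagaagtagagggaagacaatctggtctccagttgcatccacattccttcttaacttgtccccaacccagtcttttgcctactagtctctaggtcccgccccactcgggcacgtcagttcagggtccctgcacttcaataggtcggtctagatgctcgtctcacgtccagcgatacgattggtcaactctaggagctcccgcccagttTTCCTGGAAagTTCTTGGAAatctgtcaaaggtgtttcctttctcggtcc
Tnfrsf9: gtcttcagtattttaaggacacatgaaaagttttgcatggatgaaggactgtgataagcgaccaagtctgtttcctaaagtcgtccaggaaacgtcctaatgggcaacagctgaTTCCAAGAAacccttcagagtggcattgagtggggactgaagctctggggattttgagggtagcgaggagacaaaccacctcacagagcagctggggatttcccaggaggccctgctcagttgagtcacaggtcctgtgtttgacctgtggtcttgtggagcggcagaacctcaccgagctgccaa
Lta and Cish held 2 matches each and Tnfrsf9 held 1. Of 12 called STAT5 targets, 9 had a window and 3 of these a match (Lta, Cish and Socs3, 33.3%), as did 4 of 15 in the whole list (26.7%) and 2582 of 27025 genes with a window (9.55%). The STAT5 letters were also in 4 of 18 windows of Treg-high genes (22.2%), 2 of 10 of the largest falls and 0 of 10 of the largest rises. The forkhead motif GTAAACA, searched on both strands, was in 0 of the 10 windows of the 15 largest falls, 1 of 10 for the largest rises, 2 of 15 for the IL-2 and STAT5 list (13.3%), 1 of 9 for its called members (11.1%), 1 of 18 for Treg-high genes (5.56%) and 4.05% of genes. The 1 among the rises was that of Fcgrt, at chr7:45103773-45104072 (minus strand).
Fcgrt: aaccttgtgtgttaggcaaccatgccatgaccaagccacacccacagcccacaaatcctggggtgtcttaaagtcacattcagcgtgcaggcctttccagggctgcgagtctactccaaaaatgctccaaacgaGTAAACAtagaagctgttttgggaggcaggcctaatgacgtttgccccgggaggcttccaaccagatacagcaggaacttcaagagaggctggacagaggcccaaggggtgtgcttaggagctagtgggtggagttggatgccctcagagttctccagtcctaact
A match is a run of letters in a short window, and factor binding was not measured on these arrays.

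TNF family ligands and receptors moved in 1 direction where they were called. Of 13 ligands 3 were lower and 0 higher (4 and 0 with the block), and of 15 receptors 4 were lower and 0 higher (6 and 0 with the block), although the list medians were near 0 (-0.04 and -0.10). Among all genes 1.18% were lower and 0.813% higher, or 4.06% and 3.17% with the block. Tnf itself was at 3.92, 2.73 and 2.54 with A384T and at 0.35 and -0.05 with R397W (-2.91 ± 0.49, 7.53-fold lower, adjusted p = 0.0172). Ltb, which pairs with lymphotoxin alpha on the cell surface, was at 1.19, 1.10 and 1.11 with A384T and at -0.55 and 0.01 with R397W (-1.41 ± 0.18, adjusted p = 0.00434). With Lta, all 3 genes of the neighbouring Lta, Tnf and Ltb cluster thus lay lower in R397W.

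Among the receptors, Tnfrsf9 had the largest difference, at 3.36, 3.77 and 3.39 with A384T and at -0.46 and 0.29 with R397W (-3.59 ± 0.33, adjusted p = 0.000786). Tnfrsf4, the receptor OX40, was at 2.10, 1.97 and 2.00 with A384T and at -0.02 and 0.60 with R397W (-1.73 ± 0.25, adjusted p = 0.00743). Tnfrsf18, the receptor GITR of Treg cells (-0.96 ± 0.15, adjusted p = 0.0135), and Tnfrsf13b, the receptor TACI (-0.90 ± 0.16, adjusted p = 0.0205), differed by smaller amounts. The arrays of each of the 4 receptors did not overlap, as with all 661 called probe sets and 22.7% of all. Without R397W 1 the receptor count was 1 and without R397W 2 it was 2, and the ligand count was 2 in either fit. Tnf was lost without R397W 1 (adjusted p = 0.101) or R397W 2 (0.152), and Tnfrsf13b also without A384T 2 or A384T 3 (highest adjusted p = 0.204).

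Irf4, a transcription factor that effector Treg cells use beside FoxP3, was at 3.30, 2.85 and 1.66 with A384T and at 0.11 and -0.49 with R397W (-2.80 ± 0.46, 6.94-fold lower, adjusted p = 0.0148). Another probe set of Irf4 was at -0.15 and not called. Batf, the AP-1 family partner of Irf4, showed no such separation. It stood at -1.01, -0.65 and -0.49 with A384T and at -1.30 and -0.28 with R397W (-0.07 ± 0.36, adjusted p = 0.977), and its sign turned with the block (0.04). Irf4 was the 1 called gene of 11 effector Treg regulators (1 lower and 2 higher with the block), and its call was lost without A384T 2 (adjusted p = 0.0599), R397W 1 (0.0761) or R397W 2 (0.148). The shares of all genes were 1.18% lower and 0.813% higher (4.06% and 3.17% with the block), so 1 call is no result about that list. Id3, an inhibitor of helix-loop-helix factors, was at 2.84, 2.55 and 2.32 with A384T and at -0.23 and -0.05 with R397W (-2.71 ± 0.24, 6.55-fold lower, adjusted p = 0.00064).

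Early response genes of the T cell receptor (TCR) had 3 of 23 lower and 0 higher, and 9 lower with the block, with a median of -0.66. Without regard to list, 1.18% of genes were lower (4.06% with the block). The 3 were Spry1, an inhibitor of receptor signalling (-1.99 ± 0.37, adjusted p = 0.0297), Relb, a subunit of NF-kappaB (-1.82 ± 0.38, adjusted p = 0.048), and Nfkbia, the inhibitor of NF-kappaB (-1.58 ± 0.27, adjusted p = 0.0173). Another probe set of Nfkbia was at 0.03. The count of 3 was 0 without A384T 1, R397W 1 or R397W 2 and 1 without A384T 2. Of 17 AP-1 and MAF factors, Jdp2 was the 1 called, at 1.49, 1.11 and 1.26 with A384T and at 0.24 and 0.02 with R397W (-1.16 ± 0.18, adjusted p = 0.0103), with another probe set at 0.10 and not called. Its call was lost without R397W 1 (0.0623) or R397W 2 (0.119). With the block, Maff (-1.72, adjusted p = 0.0988 and blocked 0.00697) and Junb (-1.49, adjusted p = 0.558 and blocked 0.00396) were called too.

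**Figure D3:**
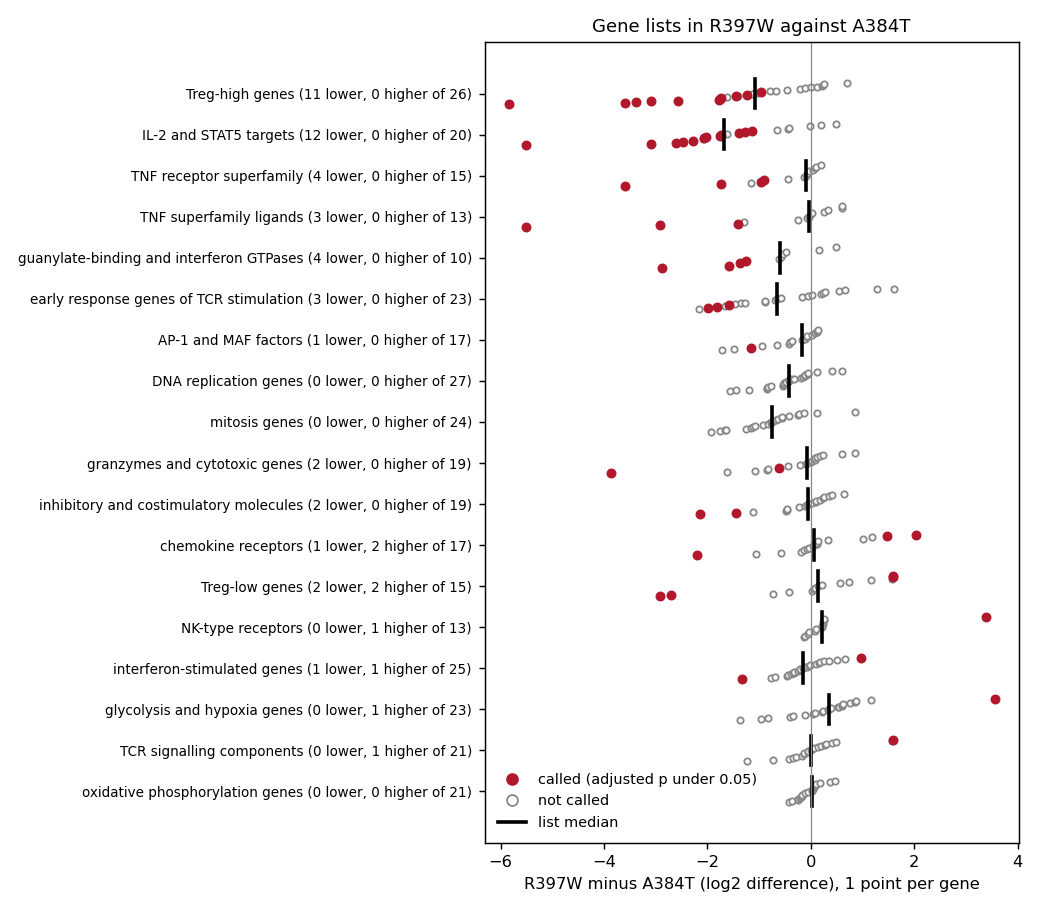
R397W minus A384T (log2) for each measured gene of 18 lists, 1 point per gene, filled where the gene was called (adjusted p under 0.05), with a bar at the list median. The called genes of the Treg-high and the IL-2 and STAT5 lists lie left of 0 without exception, and the mitosis list has a median of -0.76 with 0 of 24 called.

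Genes low in Treg cells went both ways, with 2 of 15 lower and 2 higher, against 1.18% and 0.813% of all genes. With the block 3 were lower and 6 higher, against 4.06% and 3.17%. The lower ones without the block were Tnf and Id3. The higher ones were Ptpn22, a phosphatase that restrains TCR signalling, and Il4. Ptpn22 was at -1.78, -1.48 and -1.28 with A384T and at -0.03 and 0.17 with R397W (1.58 ± 0.14, 2.99-fold higher, adjusted p = 0.00064). Il4, the defining cytokine of type 2 helper cells, was at -2.05, -1.60 and -1.51 with A384T and at 0.03 and -0.30 with R397W (1.59 ± 0.22, adjusted p = 0.00622). In both, the A384T arrays lay more than 1 below every R397W array. The Il4 call was lost without R397W 1 (0.0812).

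Of 25 T cell cytokines and chemokines, Lif and Osm were lower and Il4 was higher, and 4 were lower and 2 higher with the block. For comparison, 1.18% of all genes were lower and 0.813% higher (4.06% and 3.17% with the block). Il2 was at -0.08, -0.22 and -0.16 with A384T and at 0.43 and 0.41 with R397W, a difference that missed the test and was called with the block (0.57 ± 0.12, adjusted p = 0.0594, blocked 0.0343). Ifng, the cytokine of type 1 helper cells, was at -0.09, -0.17 and -0.16 with A384T and at -0.14 and 0.01 with R397W (0.08 ± 0.14, adjusted p = 0.928). Il7r, the IL-7 receptor of naive and memory T cells, was at -1.77, -0.56 and -0.51 with A384T and at -0.13 and 0.55 with R397W (1.16 ± 0.38, adjusted p = 0.253). With the block Il7r was called (adjusted p = 0.00251), and number 1 was the lowest array in both groups. Among 19 inhibitory and costimulatory molecules, Cd274, the ligand PD-L1, was lower beside Ctla4, at 2.54, 2.27 and 1.17 with A384T and at -0.36 and 0.06 with R397W (-2.14 ± 0.37, 4.41-fold, adjusted p = 0.0197), and with the block 4 of the 19 were lower and 1 higher. Its call was lost without A384T 1, A384T 2, R397W 1 or R397W 2 (highest adjusted p = 0.189).

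Chemokine receptors separated in both directions. Of 17, Cxcr6, the receptor for CXCL16, and Ccr2, a receptor for inflammatory chemokines, were higher in R397W, and Cxcr3, a receptor of type 1 helper cells, was lower (3 lower and 5 higher with the block). All genes had shares of 1.18% lower and 0.813% higher (4.06% and 3.17% with the block). Cxcr6 was at -1.96, -2.16 and -1.46 with A384T and at 0.11 and 0.25 with R397W (2.04 ± 0.30, 4.12-fold higher, adjusted p = 0.00867). Ccr2 was at -1.31, -1.56 and -0.69 with A384T and at 0.53 and 0.05 with R397W (1.47 ± 0.30, adjusted p = 0.0437). Cxcr3 was at 2.07, 2.15 and 1.27 with A384T and at -0.41 and -0.31 with R397W (-2.20 ± 0.41, 4.58-fold lower, adjusted p = 0.0295). None of these groups overlapped, which was so for all 661 called probe sets and for 22.7% of all. Of 16 integrins and selectins, Itgae was lower and Itga7 higher (1 and 2 with the block). All 3 chemokine receptor calls were lost without R397W 1 or R397W 2, and Ccr2 in 8 of 11 fits (highest adjusted p = 0.315). Cxcr3 was lost without mock 2, A384T 1 and A384T 2 as well.

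Guanylate-binding proteins and interferon-inducible GTPases, which act against intracellular microbes, had 4 of 10 genes lower in R397W and 0 higher (6 and 0 with the block, median -0.59). The share of all genes that were lower was 1.18%, and 4.06% with the block. Iigp1 was at 2.80, 3.21 and 2.27 with A384T and at -0.91 and 0.65 with R397W (-2.88 ± 0.40, 7.39-fold lower, adjusted p = 0.00665). Its R397W arrays lay apart, R397W 1 below mock and R397W 2 above, and the call held without either. Gbp3 (-1.58 ± 0.26, adjusted p = 0.0162), Gbp2 (-1.38 ± 0.28, adjusted p = 0.0415) and Gbp7 (-1.26 ± 0.20, adjusted p = 0.011) were lower by similar amounts. The count was 1 without R397W 1 and 2 without R397W 2, A384T 1 or A384T 2. After quantile normalization of the mock-centred values, which can itself shrink differences, all 4 missed the test. Iigp1 was then at -1.82 (adjusted p = 0.149) and Gbp3 at -0.57 (adjusted p = 0.966).

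The wider set of 25 interferon-stimulated genes held 1 lower gene, the exonuclease Isg20 (-1.33 ± 0.26, adjusted p = 0.0391), and 1 higher gene, the antiviral Ifit2 (0.97 ± 0.15, adjusted p = 0.0132), with a median of -0.16. With 1.18% of all genes lower and 0.813% higher (4.06% and 3.17% with the block), these 2 calls are no result about the set. Of 19 granzymes and cytotoxic genes, Gzmc and the lysosomal protein gene Lamp1 (-0.61 ± 0.13, adjusted p = 0.0462) were lower, and 6 were lower with the block. Gzmb, the granzyme that Treg and killer cells use, was among the latter. It was at 3.26, 3.33 and 1.26 with A384T and at 0.83 and 1.16 with R397W, so that the groups nearly touched at A384T 3 (adjusted p = 0.504, blocked 3.71e-05), and it was named after its values were seen. Isg20 and Lamp1 were lost in 8 and 10 of 11 fits (highest adjusted p = 0.306 and 0.326), and Ifit2 without A384T 1, R397W 1 or R397W 2 (0.136).

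The remaining T cell lists held at most 1 called gene each, in every case a gene given elsewhere. Since 1.18% of all genes were lower and 0.813% higher (4.06% and 3.17% with the block), 1 call is no result about a list. Of 13 genes of type 1 helper cells Cxcr3 was lower, and of 13 of type 2 Il4 was higher, while with the block 2 were lower and 3 higher, and 1 lower and 2 higher. Of 8 of type 17, 0 were called with or without the block (Stat3 was at -0.61, adjusted p = 0.859, and Ccr6 at -0.14, adjusted p = 0.817). Of 15 genes of naive and memory T cells Id3 was lower, and with the block 4 were lower and 4 higher, among them Klf2, a factor of naive cell traffic (0.84, adjusted p = 0.131, blocked 0.00482), and Ccr7, the receptor that leads to lymph nodes (-1.06, adjusted p = 0.298, blocked 0.0056). Of 13 NK-type receptors Klrd1 was higher, of 21 TCR signalling components Ptpn22, and of 20 genes of the PI3 kinase pathway Pik3ap1. With the block the signalling list had 2 lower and 3 higher, and the PI3 kinase list 1 lower and 4 higher, with Rictor, a subunit of mTOR complex 2, among the higher (0.89, adjusted p = 0.139, blocked 0.00176). Klf2, Ccr7 and Rictor were named after their values were seen.

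Of 18 genes of leukotriene, prostaglandin and steroid metabolism, 2 were lower and 2 higher (3 and 4 with the block). Taken over all genes, 1.18% were lower and 0.813% higher (4.06% and 3.17% with the block). Cyp4f18, which breaks down leukotriene B4, was lower, at 4.43, 3.67 and 3.54 with A384T and at 0.15 and 0.26 with R397W (-3.68 ± 0.32, 12.8-fold, adjusted p = 0.000564). Alox5ap, which is needed to make leukotrienes, was higher, at -2.87, -2.45 and -2.27 with A384T and at 0.31 and 0.24 with R397W (2.81 ± 0.30, 7.00-fold, adjusted p = 0.0015). These 2 genes differed in opposite directions. Ptger4, a receptor of prostaglandin E2, was lower (-1.69 ± 0.27, adjusted p = 0.014), and Fdx1, a ferredoxin of steroid synthesis, was higher (0.57 ± 0.10, adjusted p = 0.0162). Ptger4 was lost without A384T 2, R397W 1 or R397W 2 (highest adjusted p = 0.124), and Fdx1 without the same 3 arrays (0.155).

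Metabolic lists held few calls without the block, as did all genes (1.18% lower and 0.813% higher, or 4.06% and 3.17% with the block). The few calls are therefore no result about metabolism. Of 23 glycolysis and hypoxia genes Epas1 was the 1 called (2 lower and 5 higher with the block), and of 17 cholesterol synthesis and 21 oxidative phosphorylation genes 0 were called by limma, against 1 higher in each with the block. These were Stard4, a carrier of cholesterol (0.46, adjusted p = 0.267, blocked 0.0497), and Ndufb8, a subunit of complex I (0.47, adjusted p = 0.0558, blocked 0.0338). Another probe set of Ndufb8 had the opposite sign, at -0.30. Xbp1, the transcription factor of the unfolded protein response, was at 1.80, 1.79 and 1.17 with A384T and at 0.21 and 0.09 with R397W (-1.44 ± 0.21, 2.71-fold lower, adjusted p = 0.00743). It was the 1 called of 19 stress genes (2 lower and 2 higher with the block) and was lost without R397W 1 (0.065) or R397W 2 (0.0845). Bbc3, the death gene PUMA, was higher (1.22 ± 0.24, adjusted p = 0.0391), opposite to Bcl2l1 in the same list of 22 BCL-2 family and p53 target genes, of which 5 were lower and 1 higher with the block. Bbc3 was lost in 9 of 11 fits (highest adjusted p = 0.242).

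Cell cycle lists differed between the A384T arrays by more than between the mutants, and between the 2 R397W arrays by less. The median of 24 mitosis genes was 1.92, 0.59 and 0.10 on A384T 1, 2 and 3 and 0.39 and -0.13 on R397W 1 and 2. The array numbered 1 was the highest in both groups, and within number 1 and number 2 the R397W median lay below that of A384T. The list's median difference was -0.76, with 22 of the 24 genes below 0, against 8650 of 18193 over all genes. Of the 24, 0 were called, while 7 were lower and 0 higher with the block (4.06% and 3.17% over all genes). Birc5, which encodes survivin, was at 3.03, 2.30 and 0.77 with A384T and at 0.64 and -0.44 with R397W (-1.93 ± 0.69, adjusted p = 0.313, blocked 0.00463), and Ube2c, a ubiquitin carrier of mitotic exit, differed by -1.76 (adjusted p = 0.44, blocked 0.00281). The median of 27 DNA replication genes was 0.90, 0.43 and 0.08 with A384T and 0.15 and -0.05 with R397W, and 0 were called, against 4 lower with the block. Their median difference was -0.43, with 24 of the 27 below 0. Mcm5, a subunit of the replicative helicase, was at 2.88, 2.10 and 1.32 with A384T and at 0.35 and 0.71 with R397W (-1.57 ± 0.47, adjusted p = 0.19, blocked 0.00996), and Tk1, thymidine kinase, differed by -1.44 (adjusted p = 0.536, blocked 0.0273). The part of cell division in the other differences was not tested.

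Some genes differed between the mutants though the difference of WT from mock was far from the threshold in limma (adjusted p above 0.5 without the block), which was so at 29 of the lower and 32 of the 277 higher probe sets. That A384T differs from WT at such a gene needs its own test, and among the 10 named by rule it passed for 2 without the block and for 7 with it. This test used the same A384T and WT arrays that chose the genes, so it is not independent of the choice. Car2, a carbonic anhydrase, was at 2.20, 1.71 and 1.69 with A384T, at -0.07, 0.23 and -0.01 with WT and at 0.43 and 0.22 with R397W (-1.54 ± 0.23, adjusted p = 0.00896, with A384T minus WT 1.82, adjusted p = 0.0145). Sgk1, a kinase that responds to salt and glucocorticoids, was at -1.35, -1.73 and -1.27 with A384T, at 0.03, 0.07 and 0.20 with WT and at -0.23 and -0.25 with R397W (1.21 ± 0.17, adjusted p = 0.00733, with A384T minus WT -1.55, adjusted p = 0.00808). At both genes the A384T arrays stood apart from the arrays of all other groups.

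For the other 8 the test of A384T against WT did not pass without the block, while with it 5 passed, namely Asb2 (blocked 0.00367), Cxcr3 (0.00389), Epb41l4b (0.0118), Cd96 (0.0157) and Zfp821 (0.0303). Asb2, a part of ubiquitin ligases, was at 2.79, 1.57 and 1.58 with A384T, at 0.13, 0.14 and -0.34 with WT and at 0.11 and 0.14 with R397W (-1.85 ± 0.35, adjusted p = 0.0293, with A384T minus WT at adjusted p = 0.0598). Epb41l4b (-1.64), Zfp821 (-1.52) and Cxcr3 were lower in R397W too, and Cxcr3 with WT was at 0.68, 1.21 and -0.34, from among the R397W arrays up to just below the A384T arrays. The block called Cxcr3 in WT over mock too (0.70, adjusted p = 0.557, blocked 0.0184), so that this gene is among the 10 only without it. Higher in R397W were Slamf6, an immune cell receptor of the SLAM family (1.14), Rom1 (1.04), Cd96, a receptor of T and NK cells (0.97), and Cdk9, a kinase of transcription elongation (0.94). Another probe set of Slamf6 was at -0.10. Car2, Sgk1, Asb2 and Zfp821 were lost without R397W 1 or R397W 2 (highest adjusted p = 0.103, 0.0778, 0.193 and 0.156), Epb41l4b also without A384T 3 (0.154), and Cd96 without R397W 1 (0.0856). Cdk9 was lost in 6 fits (0.23), and Slamf6 (0.226) and Rom1 (0.287) in 9 of 11.

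**Figure D4:**
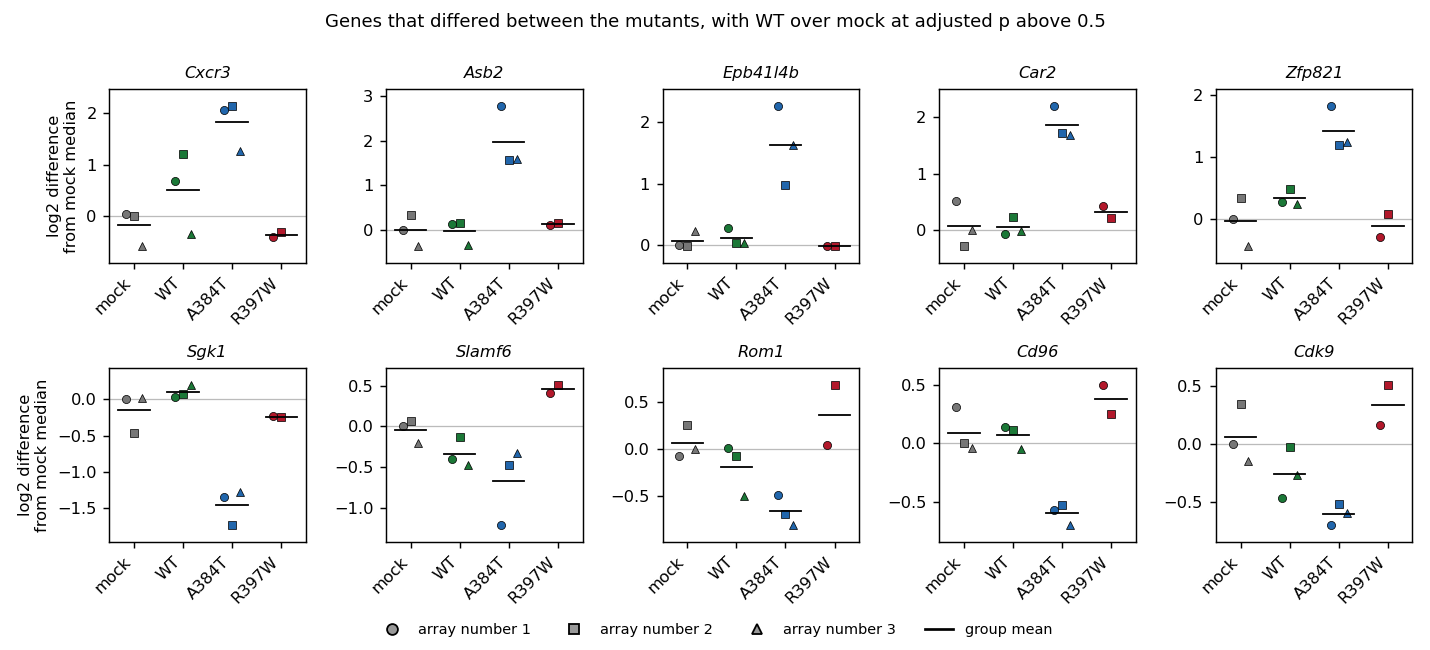
The 5 genes lower (top) and 5 higher (bottom) in R397W than in A384T by the largest amounts among those with WT over mock at an adjusted p above 0.5, in log2 difference from the mock median, with 1 point per array and a line at each group mean. At Car2 and Sgk1 the A384T points stand apart, and the WT and R397W points lie near mock.

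Markers of other cells that the sort or the feeder spleen cells could bring gave 0 lower and 2 higher genes of 76 measured in 7 lists (3 lower and 4 higher with the block). The shares over all genes were 1.18% lower and 0.813% higher (4.06% and 3.17% with the block), so these few calls are no result about other cells. The list medians ran from -0.05 to 0.12. Among those called with the block alone were H2-Ab1, a chain of MHC class II (0.82, adjusted p = 0.338, blocked 0.0306), H2-DMb2, which loads it with peptide (-0.70, adjusted p = 0.227, blocked 0.0281), Itga2b, a platelet integrin (0.59, adjusted p = 0.0946, blocked 0.0475), and Col1a2, a collagen chain of stroma (-1.41, adjusted p = 0.407, blocked 0.0282). The 2 called without it were Fcgr3, a low-affinity Fc receptor, at -2.77, -2.47 and -2.41 with A384T and at -0.36 and 0.25 with R397W (2.50 ± 0.23, 5.65-fold higher, adjusted p = 0.000778), and Adgre1, the macrophage marker F4/80, at -1.07, -1.16 and -0.98 with A384T and at -0.07 and 0.31 with R397W (1.19 ± 0.21, adjusted p = 0.0241). The other 14 genes of the macrophage and dendritic cell list lay between -0.05 and 0.29, with Csf1r at 0.03, Cd14 at 0.13 and Lyz2 at -0.04, and its median on each array was -0.03, -0.09 and -0.03 with A384T and 0.03 and 0.03 with R397W. The Adgre1 call was lost without A384T 1, A384T 2, R397W 1 or R397W 2 (highest adjusted p = 0.197). The part of other cells in the differences was not tested.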

How the data were processed

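RNA was measured on Affymetrix arrays, 1 per sample, and groups were read from the sample titles. The submitters' processing notes name RMA, with no version, for the deposited log2 values. This method models background, makes the arrays' distributions equal and fits probe sets robustly, and it can shrink large differences of dim probes. At each of 45101 probe sets the mock median was exactly 0, so the deposited values had been centred on mock. Neither that step nor the log base is stated, and base 2 was taken, as RMA gives.

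The 64 array controls were left out and 45037 probe sets were fitted with limma 3.58.1 (R 4.3.3, lmFit and eBayes), with 1 mean per group, all 11 arrays and 7 residual degrees of freedom; the script was tested on simulated data. Called means an adjusted p under 0.05, also where 0.01 was tried as a stricter choice of the probe sets that WT changes. Symbols came from the platform annotation (34945 probe sets with 1 symbol, 932 with several, 9160 with none listed; 18193 genes), and 34741 matched RefSeq (GRCm38.p6). A gene was read from its probe set with the largest spread over the 6 mock and WT arrays, which are not in the comparison. Other probe sets of a called gene did not always pass, and not every such case is given with the gene. Not called were others of Lif (-0.32), Itgae (-0.47), Iigp1 (-0.88), Gbp2 (-1.31), Ptger4 (-1.57) and Cxcr6 (1.37). The same held for the 3 of Ccr2 (0.93 to 1.01), 2 of Epb41l4b (-0.29 and -0.02) and that of Cdk9 (0.17). Same-numbered arrays deviated together in all 15 pairs (correlation of deviations from group means 0.107 to 0.718, against -0.695 to 0.344 for different numbers), so titles' numbers were taken as pairing the samples, from the data and not from the labels. The pairing was clearest for number 1 (0.575 to 0.718). A384T 2 went with R397W 2 (0.447), but more with mock 3 (0.283) and WT 3 (0.276) than with mock 2 (0.107) and WT 2 (0.177). Deviations within a group sum to 0, which by itself lowers the correlations between different numbers. In the group of 2, R397W 2 is the mirror image of R397W 1. Its correlations with mock 2 (0.496), WT 2 (0.409) and A384T 2 are those of R397W 1 with the sign turned, and are no separate evidence of pairing. R397W 2 also went with mock 3 (0.332), WT 3 (0.344) and A384T 3 (0.283).

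Genes were named by rule: the 15 largest differences each way, Foxp3, Gpr83, Il2ra, Ctla4, Irf4, Batf, Il2, Ifng and Il7r, up to 4 called members of each of 38 lists (or 2 members where none was called), the 5 largest changes each way with WT, and the 5 largest each way with WT over mock above an adjusted p of 0.5. The members and lists were chosen with earlier results of these data known. Alternatives were the number as a block, only the 5 arrays, a trend and robust prior, 2 scalings, a filter on spread, other probe set choices and arrays left out. Promoter windows and plots used Python 3.11.15 with pandas 2.3.3 and matplotlib 3.10.9.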

Additional observations from a re-analysis of the deposited data

How the results depend on the processing

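Of 77 named genes that were called, none changed direction under any alternative run. Their R397W and A384T arrays did not overlap, so leaving out arrays, a filter on spread or another prior could not turn a direction. Of the 77, 33, with 26 of the 30 largest differences, were called without any 1 of the 11 arrays. Many of the 77 calls were lost under single alternatives: 51 with only the 5 R397W and A384T arrays, 39 with a trend and robust prior, 31 after quantile normalization between arrays, 53 without the arrays numbered 1, 23 without those numbered 3, 5 with the mean of a gene's probe sets and 1 with the block in the 5 arrays. Quantile normalization moved the fold by over 1.5 times for 29 of the 77, and the mean of probe sets for 19. Applied to values already centred on mock, quantile normalization makes the arrays' spreads of differences from mock equal. How much of its lost calls and smaller folds comes from that was not tested. The counts of called probe sets moved too: 661 in all (277 higher) became 2568 (1381 lower and 1187 higher) with the replicate block of title numbers, 118 (67 and 51) with only the 5 arrays, 2263 (1318 and 945) with both, 212 (150 and 62) with a trend and robust prior, 281 (164 and 117) after quantile normalization, 97 (64 and 33) without the arrays numbered 1, and 435 (160 higher) without those numbered 3. Leaving out 1 array gave 197 to 629 in all, 124 to 380 lower and 73 to 266 higher. The block kept all 77 named calls and all 661 probe sets, and in R397W against A384T it changed no other call of a named gene than those given above. Of probe sets lowered by WT, 57.6% were higher in R397W when chosen at an adjusted p under 0.01, and over the 5 fits without 1 array of the comparison, an alternative chosen after seeing the data, as was the same for the gene lists, the shares ran from 15.9 to 42.2% (raised by WT) and 10.8 to 32.1% (lowered). Batf, not called, turned sign with the block (0.04, also with only the 5 arrays), without the arrays numbered 1 (0.29) or 3 (0.04), and ran from -0.58 to 0.43 without 1 array, as Ifng ran from 0.00 to 0.15. The causes were not tested. Signal over background cannot be read from centred values, so dim probe sets could not be set aside, and a group of 2 arrays limits every value given here.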
